A study of Mus musculus with 23 samples.

Results

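The genes of the eukaryotic translation initiation factors were taken as a group, by every gene name beginning Eif1 to Eif6 in the deposited transcript tables except Eif1a and Eif1ax. This gave 52 genes of the 22619 named genes in each table. The names cover eIF1, eIF2, eIF2B, eIF3, eIF4A, eIF4B, eIF4E, eIF4G, eIF4H, eIF5, eIF5A, eIF5B and eIF6, with the eIF2α kinases, the eIF4E-binding proteins and a few genes named after them (Eif1ad, Eif2a, Eif2d and Eif4enif1).

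RNA sequencing was made from mouse embryos, labelled as strain B6D2F1 (C57BL/6xDBA/2), that had grown from germinal vesicle (GV) oocytes injected with short interfering RNA (siRNA), matured in vitro and fertilised. The siRNA was siCtrl, directed at no gene, or was directed at 1 of 3 transcription factors: siEtv5 (ETV5, an ETS-family factor), siMlx (MLX, which binds E-box sequences) or siRfx1 (RFX1, which binds X-box sequences). Embryos were collected as late zygotes, labelled 14 h after fertilisation, and at the late 2-cell stage, labelled 36 h. The study's text differs from these labels: it gives later times for both stages, oocytes from B6D2F1 females, sperm from C57BL/6 males and fertilisation by injection of the sperm, where the labels give incubation with sperm. Each of the 8 groups had 3 libraries except siEtv5 2-cell, which had 2, so there were 23 libraries of zona-free blastomeres. All embryos were injected, so no group shows the level without an injection, and siCtrl is the reference throughout. The labels give neither the age of the mice nor the number of embryos in a library and do not state that libraries came from separate injections, so p-values measure only the spread between these libraries. Values are FPKM (sequenced fragments scaled by transcript length and by library depth) summed over the transcripts of a gene, and a library is named by its group and replicate number.

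The aligned bases ranged from 119 to 991 Mb per library, and were lowest in the siRfx1 2-cell libraries (119 to 174 Mb). Those 3 libraries also held the fewest genes at 1 FPKM or more, 7378 to 8071 against 10567 to 10729 in siCtrl 2-cell. The targeted genes were checked first. Etv5 lay at 0.680 to 2.01 FPKM in siCtrl zygotes and at 0 to 0.0792 in siEtv5 zygotes, and at 43.7 to 49.3 against 5.55 and 8.98 at the 2-cell stage. Rfx1 lay at 3.05 to 3.52 FPKM in siCtrl zygotes and 0.149 to 0.481 in siRfx1 zygotes, and at 8.12 to 10.7 against 1.43 to 1.53 at the 2-cell stage. Mlx lay at 1.84 to 4.25 FPKM in siCtrl zygotes and 0 to 0.469 in siMlx zygotes. At the 2-cell stage Mlx was 2.42 to 4.42 FPKM in siCtrl and 0.836, 2.26 and 4.05 in the libraries labelled siMlx 2-cell 1, 2 and 3, so the library labelled siMlx 2-cell 3 held Mlx within the siCtrl range. The siMlx 2-cell counts and the genes named for that comparison are given with and without it. Targets also differed in libraries of other groups: Mlx was 21.5, 0 and 0 FPKM in siRfx1 2-cell 1, 2 and 3, Rfx1 was 1.85 to 2.88 FPKM in the libraries labelled siMlx 2-cell, and Etv5 was 6.73 to 12.6 in siRfx1 2-cell.

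The stage was checked against marker lists. The summed level of 12 oocyte genes was 3896 to 4442 FPKM in siCtrl zygotes and 380 to 443 in siCtrl 2-cell, while the summed level of 12 genes of the 2-cell stage was 31.1 to 61.3 and 632 to 908. In siRfx1 2-cell these sums were 729 to 903 for oocyte genes and 223 to 376 for 2-cell genes, and in siMlx 2-cell 162 to 300 and 96.2 to 404. The 2-cell list held 13 names, of which 12 were found, and Tcstv1, Tcstv3 and Gm4027 were at 0 in every library. Dux reached 1 FPKM in a siCtrl zygote library but in no siCtrl 2-cell library. In the siCtrl stage test described below 9 genes of the 2-cell list were tested, of which 8 passed higher and 1 lower. The 12 granulosa and cumulus markers summed to 7.41 to 11.6 FPKM in siCtrl zygotes and 32.4 to 71.7 in siCtrl 2-cell. In these groups 6 and 7 of the 12 were at 0 in every library, among them Amh, Lhcgr, Cyp11a1 and Inha. Cyp19a1 and Kitl reached 1 FPKM in a siCtrl zygote library, and Amhr2, Cyp19a1, Star and Kitl in a siCtrl 2-cell library. The 8 spermatozoon markers summed to 21.5 to 34.5 FPKM in siCtrl zygotes, nearly all Prm2, and 0 to 4.72 in siCtrl 2-cell. The part of any of these in the results was not tested.

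Translation starts when eIF2, loaded with GTP, brings the initiator tRNA to the small ribosomal subunit together with eIF1, eIF3 and eIF5, while eIF4E binds the mRNA cap and joins eIF4G and the helicase eIF4A. eIF2B reloads eIF2 with GTP, the eIF2α kinases stop that step under stress, and 4E-binding proteins compete with eIF4G for eIF4E. The egg stores its mRNAs and controls their translation through cap-binding and poly(A) tail proteins, some of them forms made mainly in the germ line such as eIF4E1B. The embryo then clears stored mRNA and begins its own transcription, in the mouse mostly at the 2-cell stage. An RNA level does not show how much of the factor was present or active.

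The initiation factor genes took a small part of the RNA in every zygote group. Their summed level was 3474 to 3520 FPKM in siCtrl zygotes, or 0.873 to 0.918% of all FPKM. The share was 0.777 to 0.965% in siEtv5 zygotes. In siMlx zygotes (0.778 to 0.828%) and siRfx1 zygotes (0.768 to 0.859%) it lay below the siCtrl range. At the 2-cell stage it was 4655 to 5339 in siCtrl (1.19 to 1.32%), 5032 to 5116 in siEtv5, 4770 to 6377 in siMlx and 2777 to 3312 in siRfx1. The sum was carried by few genes. In siCtrl zygotes the highest were Eif1b (716 FPKM ± 104, SD, n = 3), Eif1 (551 ± 86.3) and Eif5a (457 ± 47.0), and libraries of these neighbours in the order overlapped. The median gene of the 52 was at 9.15 to 9.77 FPKM in siCtrl zygotes and at 36.7 to 39.6 in siCtrl 2-cell. Of the 52 genes, 38 were above 0 in every library. The other 14 were listed at 0 in at least 1 library, and 12 of the 14 in a siRfx1 2-cell library. Eif3g, an RNA-binding subunit of eIF3, and Eif2s3y, the Y-linked copy of the eIF2γ gene, were listed at 0 in all 12 zygote libraries. The heat map of all 52 genes shows these levels, and the change from one stage to the next stands out more than any difference between siRNA groups within a stage.

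**Figure D1:**
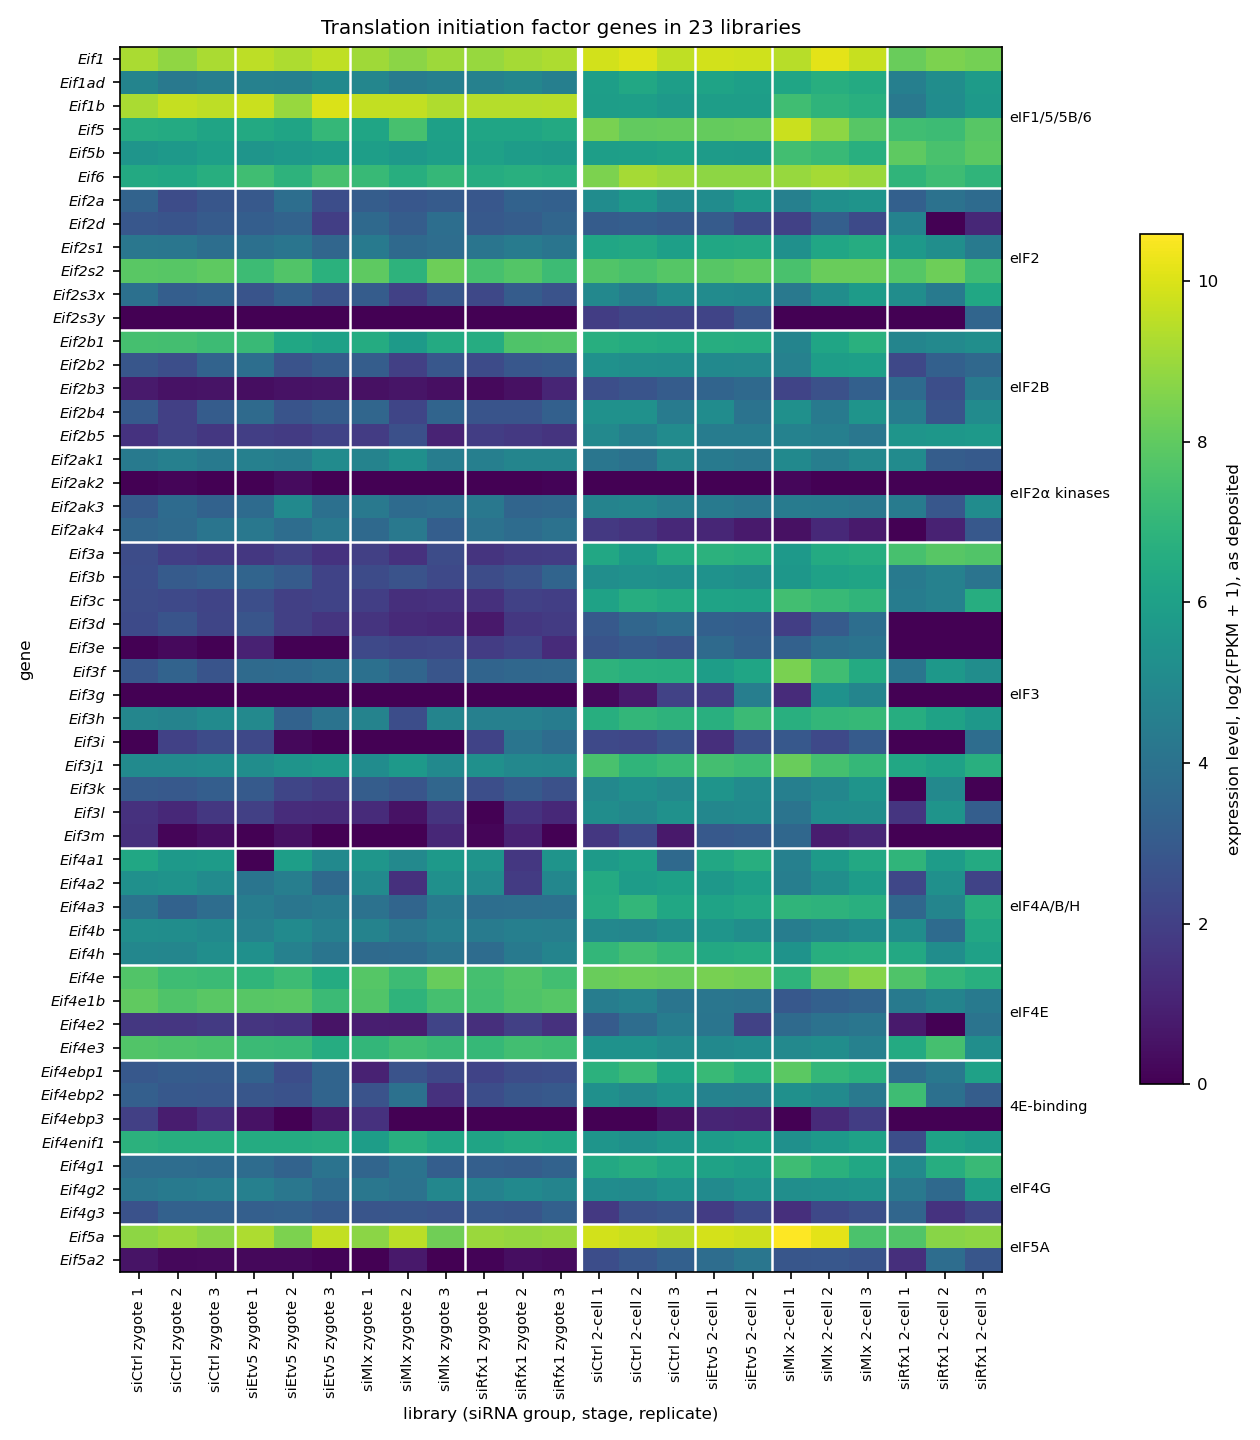
Expression level of the 52 genes (rows, grouped by role) in the 23 libraries (columns), as log2(FPKM + 1) of the deposited values, with dark cells near 0. The 12 zygote columns stand left of the wide white line and look mostly alike, with Eif1b, Eif4e1b and Eif4e3 bright. The 11 2-cell columns have brighter eIF3 rows, and the 3 siRfx1 2-cell columns have dark Eif3d and Eif3e cells. Eif3e is also dark in the siCtrl zygotes and in siEtv5 zygotes 2 and 3.

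The comparison of 2-cell with zygote in siCtrl asks how the machinery changed as the embryo passed from stored to new mRNA. Values were rescaled to a common median between libraries before this test, tested with limma on log2(FPKM + 1), and adjusted over all genes. A gene is said to have risen, fallen or passed where its adjusted p was under 0.05. Of the 52 genes, 50 had a mean of at least 1 FPKM over the compared libraries and were tested, 33 rose, 9 fell and 8 did not pass. Among all 11094 genes tested, 71.8% passed, 40.6% higher and 31.2% lower. The stage difference is thus common to most of the transcriptome, and the count of 33 genes higher stands against 40.6% and that of 9 lower against 31.2%. Of the 50 genes 6 had a mean under 1 FPKM in 1 of the stages and reached the filter through the other (Eif2b3, Eif2s3y, Eif3e, Eif3m, Eif4ebp3 and Eif5a2). Of the remaining 44, 29 rose and 8 fell. The median log2 difference was 1.42 over the 50 genes and 0.27 over all genes tested. Less RNA per embryo and fewer embryos in a library cannot be told apart in such values, and neither can a loss of RNA from a shortening of its poly(A) tail, since the reverse transcription was primed on the tail.

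The largest rises were in eIF3, the scaffold that joins the small subunit to the mRNA. Of its 13 genes 12 were tested, 9 rose, none fell, 3 did not pass, and the median log2 difference of the 12 was 1.98. Eif3a (chr19:60837019-60866596 on mm9, minus strand), the largest subunit, was at 4.55, 2.90 and 2.37 FPKM in the siCtrl zygotes and at 79.6, 53.4 and 90.2 in siCtrl 2-cell. The lowest 2-cell library stood far above the highest zygote. Rescaled, the means were 3.52 ± 1.17 and 66.9 ± 16.3 (SD, n = 3), a log2 difference of 3.91 ± 0.28 (SE, limma adjusted p = 1.21e-05). Eif3c, a core subunit that carries sites for eIF1 and eIF5, was at 4.44, 4.06 and 3.56 FPKM in zygotes and 68.1, 95.3 and 85.1 in 2-cell, a log2 difference of 3.82 ± 0.21 (limma adjusted p = 5.15e-06). Eif3f was at 6.24, 9.27 and 5.80 FPKM in zygotes and 115, 102 and 97.4 in 2-cell, a difference of 3.48 ± 0.22 (limma adjusted p = 8.11e-06). Eif3l was at 1.83, 1.3 and 2.28 FPKM and then 35.7, 29.5 and 39.6, a difference of 3.47 ± 0.24 (limma adjusted p = 9.95e-06). In each of these 4 genes the 2 stages did not overlap. The sum over the eIF3 genes was 95.5 to 106 FPKM in siCtrl zygotes and 631 to 666 in siCtrl 2-cell. The other genes that rose were Eif3b, Eif3e, Eif3h, Eif3j1 and Eif3k, with log2 differences of 1.68 to 2.61. The 3 that did not pass were low throughout: Eif3d was at 3.69 to 5.76 FPKM in zygotes and 6.78 to 12.8 in 2-cell (limma adjusted p = 0.0504), and Eif3i and Eif3m were at most at 5.37 FPKM in a siCtrl library. Eif3g, which was not tested, was listed at 0 in the zygotes and at 0.177, 0.700 and 3.22 FPKM in siCtrl 2-cell.

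Among the genes that act with initiator tRNA, 4 of the 6 named after eIF2 rose. Eif2s1, the eIF2α gene, was at 17.3, 16.8 and 12.96 FPKM in siCtrl zygotes and 76.6, 82.6 and 61.8 in 2-cell (log2 difference 1.91 ± 0.21, SE, limma adjusted p = 0.000101). Eif2a, which codes for a separate tRNA-binding protein, rose by 2.14, and the X-linked eIF2γ gene Eif2s3x by 1.16. Eif2s3y rose from a listed 0 to 2.80, 3.68 and 3.46 FPKM, so no fold is given. Eif2s2, the eIF2β gene, went the other way from a high level, 228 to 246 FPKM in zygotes and 185 to 222 in 2-cell, and fell by 0.45 on the log2 scale (limma adjusted p = 0.0137). Eif2d did not pass, with rescaled means of 6.88 ± 0.810 and 6.69 ± 0.497 (SD, n = 3). Genes of eIF2B did not move together. In all 4 rose, and Eif2b5, the catalytic ε subunit, most: it was at 1.96, 2.98 and 2.29 FPKM in zygotes and 30.5, 22.7 and 33.4 in 2-cell (2.90 ± 0.25, limma adjusted p = 2.57e-05). Eif2b1, the α subunit that binds the regulated form of eIF2, was the highest of the 5 in zygotes at 176, 172 and 152 FPKM and fell to 97.0, 90.9 and 84.0 (a difference of -1.13 ± 0.15, limma adjusted p = 0.00023). Of the eIF2α kinases, Eif2ak4 (the amino acid sensor GCN2) was at 10.3, 11.6 and 16.1 FPKM in zygotes and 2.38, 2.02 and 1.3 in 2-cell, and fell by 2.42 on the log2 scale. Eif2ak3 (PERK, the sensor of the endoplasmic reticulum) rose by 1.09, Eif2ak1 (the heme-regulated kinase) did not pass, and Eif2ak2 (PKR) was at most 0.236 FPKM in any library.

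The genes that read the cap divided. Eif4e (chr3:138189155-138220563, plus strand), the general cap-binding protein, was at 210, 156 and 147 FPKM in siCtrl zygotes and 288, 305 and 286 in 2-cell, and rose by 0.54 ± 0.16 on the log2 scale (limma adjusted p = 0.0171). Eif4e1b (chr13:54885364-54889819, plus strand), the germ line form, was at 251, 204 and 231 FPKM and then 21.1, 24.7 and 16.5, a log2 difference of -3.66 ± 0.19 (limma adjusted p = 4.71e-06). Eif4e3, a further cap-binding form, was at 209, 199 and 185 FPKM and then 40.5, 41.1 and 33.4, a difference of -2.59 ± 0.16 (limma adjusted p = 7.09e-06). In siCtrl zygotes the ranges of the 3 forms overlapped, and in siCtrl 2-cell every Eif4e value lay above every Eif4e3 value and every Eif4e3 value above every Eif4e1b value. The sum over the eIF4E family was lower in 2-cell, 357 to 384 FPKM against 561 to 672. Eif4e2 (4EHP, which binds the cap without joining eIF4G) rose by 1.82 from a low level. Of the proteins that hold eIF4E, Eif4ebp1 was at 6.53, 7.46 and 7.26 FPKM in zygotes and 110, 145 and 70.9 in 2-cell (3.46 ± 0.28, limma adjusted p = 2.05e-05), and Eif4ebp2 rose by 2.00. Eif4enif1 (4E-T, a transporter that keeps eIF4E with stored mRNA) was at 109, 99.3 and 99.4 FPKM and then 44.7, 38.2 and 48.0, a difference of -1.47 ± 0.16 (limma adjusted p = 8.13e-05). Eif4ebp3 fell from a level of 0.810 to 2.97 FPKM to 0 to 0.375. Of the eIF4G scaffolds, Eif4g1 rose by 2.41 and Eif4g2 by 0.63 while Eif4g3 fell by 0.89. Among the helicase genes Eif4a3 (which acts mainly at exon junctions), Eif4h and Eif4a2 rose by 2.66, 1.90 and 0.57, and Eif4a1 and Eif4b did not pass. The small rises rested on single libraries: Eif4e did not pass without siCtrl zygote 2 (limma adjusted p = 0.0861) or 3 (0.106), Eif4g2 without zygote 1 (0.0641) or 2 (0.0627), and Eif4a2 without any 1 of the 3 zygotes or without 2-cell 1 (0.0684 to 0.189). With a trend over transcript length removed, Eif4e (0.21, limma adjusted p = 0.230) and Eif4a2 (0.23, 0.355) did not pass. In a single fit of all 23 libraries Eif4e (limma adjusted p = 0.309), Eif4a2 (0.709) and Eif4g2 (0.326) did not pass.

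Of the genes that act at the start codon and in subunit joining, Eif1 and Eif1b made the sharpest pair. They code for closely similar eIF1 proteins, which keep the ribosome scanning until the start codon is found. Eif1b (chr9:120401724-120404445 on mm9, plus strand) was at 601, 805 and 742 FPKM in siCtrl zygotes and at 58.9, 60.1 and 51.4 in 2-cell, a log2 difference of -3.88 ± 0.17 (limma adjusted p = 3.3e-06), and the stages did not overlap. Eif1 (chr11:100181310-100183410, plus strand) was at 602, 452 and 600 FPKM and then 936, 1063 and 751, a difference of 0.47 ± 0.17 (limma adjusted p = 0.0386). Without siCtrl 2-cell 3 the Eif1 difference passed, without any other siCtrl library it did not, and with the trend over transcript length removed it was -0.15 (limma adjusted p = 0.426). Eif6, which keeps the large subunit apart, rose by 2.17, Eif5, which makes eIF2 hydrolyse its GTP, by 1.54, and Eif1ad by 1.29. Eif5b, the factor that joins the subunits, differed little between the stages, with rescaled means of 56.3 ± 9.27 and 56.6 ± 2.60 (SD, n = 3). Of the eIF5A genes, which code for a factor of elongation despite the name, Eif5a rose by 0.62 (0.08 and limma adjusted p = 0.621 with that trend removed), and Eif5a2 rose from a range of 0.180 to 0.459 FPKM in zygotes to 4.59 to 8.51 in 2-cell.

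**Figure D2:**
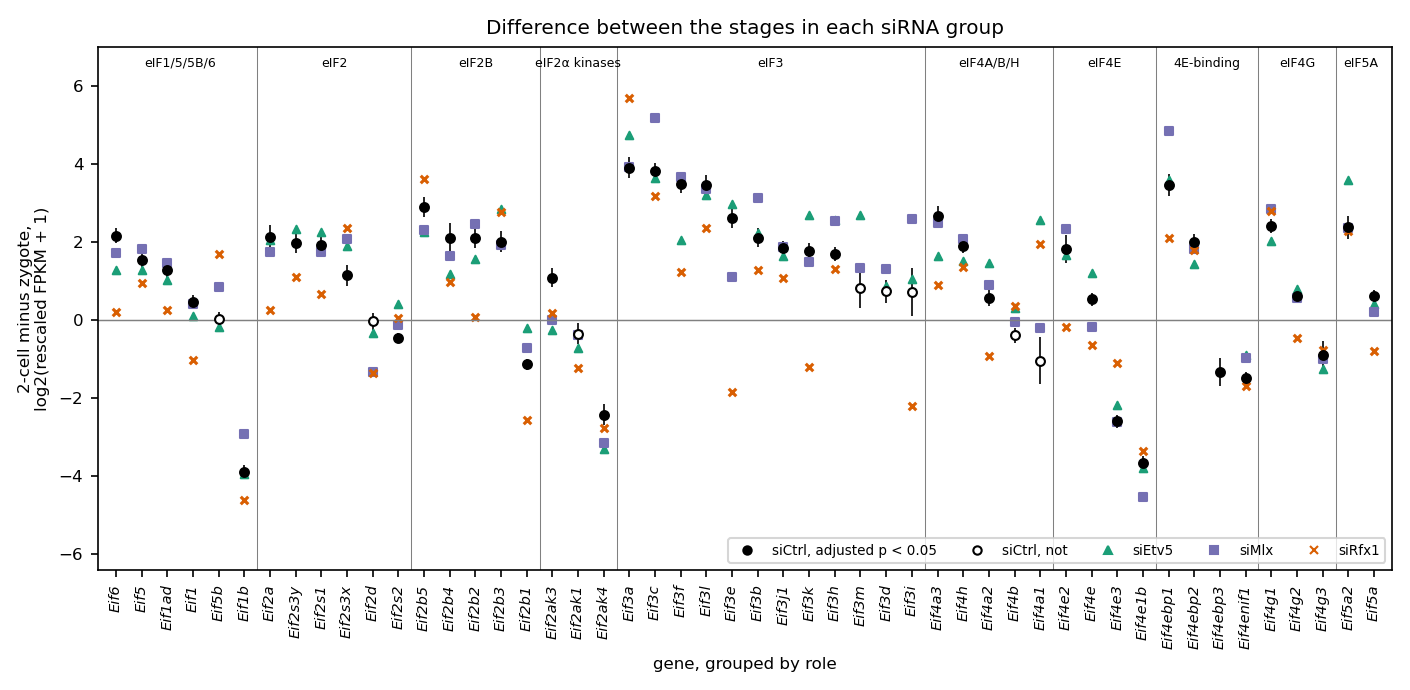
Difference between 2-cell and zygote of each gene (log2 of rescaled FPKM + 1), grouped by role, for siCtrl (black circles with SE bars, filled where the adjusted p was under 0.05) and for siEtv5, siMlx and siRfx1 (triangles, squares, crosses, without error bars). The siEtv5 and siMlx symbols mostly lie near those of siCtrl, with Eif1b, Eif4e1b and Eif4e3 low and Eif3a and Eif3c high in all 4 groups. Many siRfx1 crosses lie lower, and those of Eif3a and Eif5b lie higher.

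The same comparison could be made in the 3 other siRNA groups, which share no library with siCtrl. In siEtv5 29 of 50 genes tested rose and 6 fell, beside 39.2% and 24.1% of all genes (63.4% together). In siMlx 29 of 49 rose and 7 fell, beside 36.7% and 30.8% (67.5%). In siRfx1 14 of 47 rose and 6 fell, beside 18.9% and 29.8% (48.7%). Of the 42 genes that passed in siCtrl, 33 passed in the same direction in siEtv5, 32 in siMlx and 17 in siRfx1, beside 72.3%, 75.8% and 48.7% of all genes that passed in siCtrl. In siCtrl, siEtv5 and siMlx alike 30 passed in the same direction, beside 61.4%, and the 6 of these that fell were Eif1b, Eif2ak4, Eif4e1b, Eif4e3, Eif4enif1 and Eif4g3. Eif3a rose in all 4 groups, by 3.91 in siCtrl, 4.74 in siEtv5, 3.92 in siMlx and 5.70 in siRfx1. Eif1b fell in all 4 groups, by 3.88, 3.95, 2.93 and 4.61 on the log2 scale in the same order, and Eif4e1b by 3.66, 3.79, 4.53 and 3.36. In siCtrl and siRfx1 2 genes passed in opposite directions: Eif1, which rose in siCtrl and fell by 1.03 in siRfx1, and Eif3e. In siEtv5 21 passed without siEtv5 2-cell 1 and 22 without siEtv5 2-cell 2, fits in which the 1 2-cell library left is assumed to vary as the zygotes do. In siRfx1 it was 13, 11 and 12 without the zygotes 1, 2 and 3. The share of all genes that passed in these siEtv5 and siRfx1 fits is not given. The counts are therefore not results about the initiation genes alone.

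The shift between related genes was also measured within each library, as the log2 ratio of their FPKM + 1. The ratio of Eif1b to Eif1 was 0.38 ± 0.42 in siCtrl zygotes and -3.98 ± 0.14 in siCtrl 2-cell (SD, n = 3). The ratio of Eif4e1b to Eif4e was 0.43 ± 0.20 and -3.77 ± 0.24. Eif4ebp2 to Eif4ebp1 and Eif4g2 to Eif4g1 were lower in 2-cell by 1.47 and 1.78, and Eif4a2 to Eif4a1 and Eif5a2 to Eif5a higher by 1.61 and 1.65. Without siCtrl 2-cell 3, where Eif4a1 was at 11.3 FPKM, the Eif4a2 to Eif4a1 difference was 0.90. In none of the 7 ratios did the stages overlap, and with 3 libraries against 3 the two-sided exact permutation p was 0.1, the smallest it can be. The ratios of the knockdown (KD) groups cannot reach a p of 0.05 against siCtrl either, so only their values are given. Eif1b to Eif1 was 0.105 to 0.232 in siMlx 2-cell and 0.0565 to 0.0685 in siCtrl 2-cell, as plain ratios of FPKM. Eif4e1b to Eif4e was 0.648 to 0.940 in siMlx zygotes and 1.2 to 1.58 in siCtrl zygotes, and 0.0936 to 0.207 in siRfx1 2-cell and 0.0575 to 0.0811 in siCtrl 2-cell. None of these 3 pairs of groups, chosen after their values were seen, overlapped. Other KD ratios lay outside the siCtrl range too, among them Eif4e1b to Eif4e in siEtv5 2-cell and Eif4g2 to Eif4g1 in siRfx1 zygotes. Others overlapped it, such as Eif1b to Eif1 in the zygotes of every KD group. The share of KD ratios without overlap is not given, so a lack of overlap does not set the 3 pairs apart. Of the copies elsewhere in the mm9 genome that could take or lend reads, Eif1 had 9 places of at least 95% identity over at least 100 bases covering 90.5% of its transcript, and Eif4e such places covering 56.7%. Such places covered 94.3% of Eif4a1 and 97.6% of Eif2s3x. Among genes that rose they covered 98.3% of Eif4a3 and 100% of Eif3h and of Eif3j1. Eif1b and Eif4e3 had none.

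**Figure D3:**
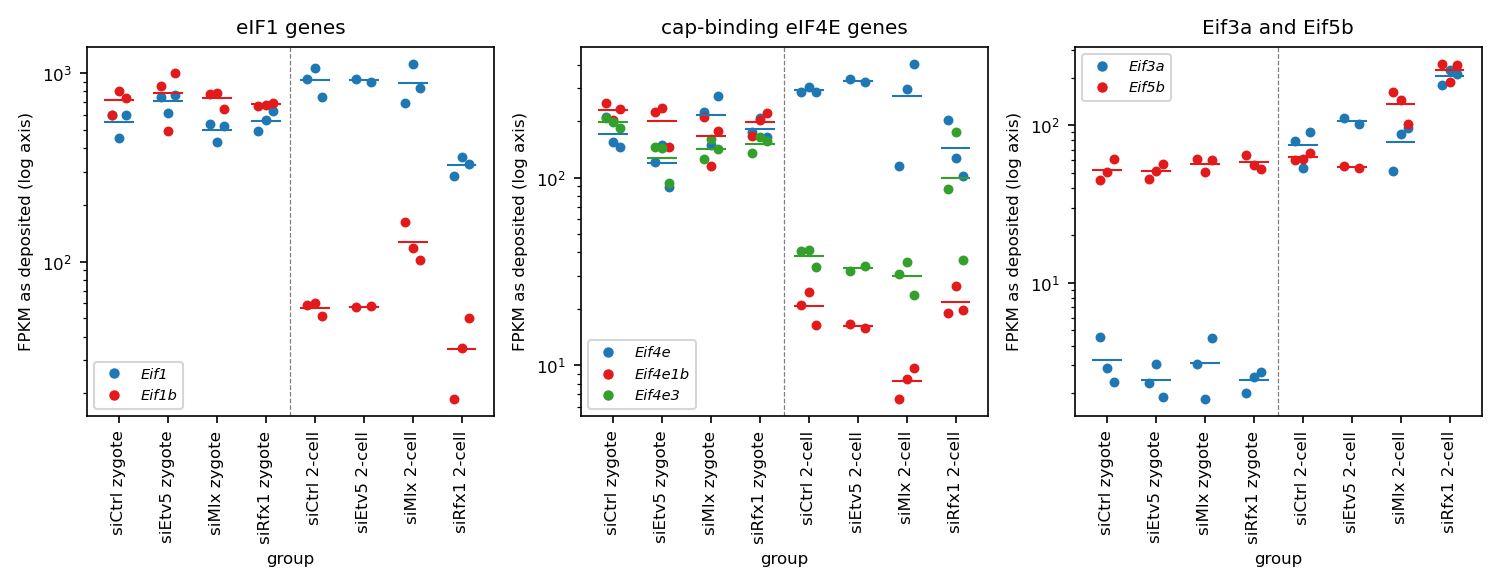
Deposited FPKM (log axis) in every library, by group, for Eif1 and Eif1b (left), Eif4e, Eif4e1b and Eif4e3 (middle), and Eif3a and Eif5b (right), with a bar at each group mean. Eif1b falls below Eif1 and Eif4e1b below Eif4e in all 2-cell groups. Eif3a is near 3 FPKM in zygotes, and Eif3a and Eif5b are highest in siRfx1 2-cell.

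The proximal promoters of the pairs are shown for matches to the short motifs that the KD targets MLX and ETV5 bind. Sequences are the 250 bases before the start of the gene in RefSeq on GRCm38.p6, written 5′ to 3′ in the direction of the gene. Capitals mark the E-box CACGTG and the ETS motif CCGGAAG on either strand, which do not overlap each other.
Eif1b promoter, chr9:120492356-120492605, plus strand: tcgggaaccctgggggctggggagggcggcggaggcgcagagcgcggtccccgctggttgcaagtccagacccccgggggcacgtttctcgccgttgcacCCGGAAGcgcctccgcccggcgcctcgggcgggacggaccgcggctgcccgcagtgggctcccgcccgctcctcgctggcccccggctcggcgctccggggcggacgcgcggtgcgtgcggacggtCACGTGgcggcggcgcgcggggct
Eif1 promoter, chr11:100319699-100319948, plus strand: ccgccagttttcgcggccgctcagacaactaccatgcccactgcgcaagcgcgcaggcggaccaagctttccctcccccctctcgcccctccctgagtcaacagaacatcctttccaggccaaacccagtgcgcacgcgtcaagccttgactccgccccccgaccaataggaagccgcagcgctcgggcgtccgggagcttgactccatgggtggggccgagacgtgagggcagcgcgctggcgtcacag
Eif4e promoter, chr3:138527018-138527267, plus strand: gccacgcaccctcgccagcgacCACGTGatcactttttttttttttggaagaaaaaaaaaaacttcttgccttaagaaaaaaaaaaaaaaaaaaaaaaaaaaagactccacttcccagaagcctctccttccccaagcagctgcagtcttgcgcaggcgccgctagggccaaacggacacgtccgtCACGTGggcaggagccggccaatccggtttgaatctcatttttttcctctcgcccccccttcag
Eif1b held an E-box that began 24 bases before the start and an ETS motif at 150, Eif1 held neither, and the downstream of the 2 starts listed for Eif4e, shown here, held E-boxes at 228 and 64. A promoter of 300 bases around the start was at hand for 42 of the 52 genes, and not for Eif4e1b, Eif4e3 or Eif3e. The E-box was in 10 of the 42 (23.8%), in 8.09% of all 27025 promoters and in 11.9% of the 8084 genes at 1 FPKM or more. The ETS motif was in 15 (35.7%), against 9.93% and 20.6%, and the X-box core GTTGCC in 8 (19.05%), against 14.1% and 14.9%. These are matches of letters and not sites of binding. At the mRNA 3′ end, the cytoplasmic polyadenylation letters TTTTAT or TTTTAAT were in the last 100 bases of 6 of the 52 genes (11.5%), among them Eif4e3 and Eif4ebp1, and of 16.3% of 21819 genes.

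The KD comparisons ask whether knockdown of Etv5, Mlx or Rfx1 altered the initiation genes. Binding of these factors was not measured here, and the study took ETV5 as a negative control with little expression in oocytes and zygotes. In zygotes 1 gene passed in the 3 comparisons with siCtrl, Eif3e in siMlx. Eif3e (chr15:43081586-43114282, minus strand) was listed at 0, 0.204 and 0 FPKM in siCtrl zygotes and at 4.08, 3.63 and 3.81 in siMlx zygotes. The groups did not overlap, and the log2 difference was 2.34 ± 0.25 (SE, limma adjusted p = 0.0163). Eif3e reached the filter of 1 FPKM only through siMlx zygotes, so the filter admitted it only because the groups differed. It was the 1 of 46 genes tested that passed, beside 2.61% of 8934 genes. The call was lost without siCtrl zygote 3 (limma adjusted p = 0.0786), without siMlx zygote 1 (0.0803) and with siEtv5 zygotes as the control (0.123). Eif3e was also at 2.72, 3.36 and 1.46 FPKM in siRfx1 zygotes, above all siCtrl zygotes (1.74 ± 0.31, limma adjusted p = 0.206), and at 1.03, 0 and 0 in siEtv5 zygotes. It has 2 near-identical places elsewhere in mm9 that cover 96.7% of its transcript, so its reads are uncertain. In siRfx1 zygotes 0 of 45 genes passed, beside 0.0557% of all genes, and 12 had an unadjusted p under 0.05, beside 14.6% of all genes. In siEtv5 zygotes 0 of 45 passed, beside 0% of all genes, and 7 had an unadjusted p under 0.05, beside 12.4%. The lowest p there was that of Eif4a2, at 38.9, 42.6 and 32.9 FPKM in siCtrl and 16.1, 21.9 and 11.2 in siEtv5 zygotes (-1.04 ± 0.28, limma adjusted p = 0.32).

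That value moved with the transcript the deposited table assigned it to. Eif4a2 lies at chr16:23107552-23114205 (mm9, plus strand) and has a 2218-base and a 3174-base transcript in the tables, the longer with an exon of 140 bases at chr16:23109193-23109332 and a last exon of 1782 bases in place of 966. In siCtrl zygotes the 2218-base transcript held 36.9, 39.5 and 31.1 FPKM, 92.6 to 94.7% of the gene. In siCtrl 2-cell it was listed at 0 and the 3174-base transcript held all of it, 87.6, 56.8 and 62.9 FPKM. All 3 siEtv5 zygotes had the shorter transcript at 0 and so did siMlx zygote 2 and siRfx1 zygote 2, where the whole gene was at 1.78 and 2.57 FPKM. The part of this assignment in the level of the gene was not tested. Exons of Eif4a2 also overlap those of Rfc4 on the other strand, and the library kit does not keep strand.

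**Figure D4:**
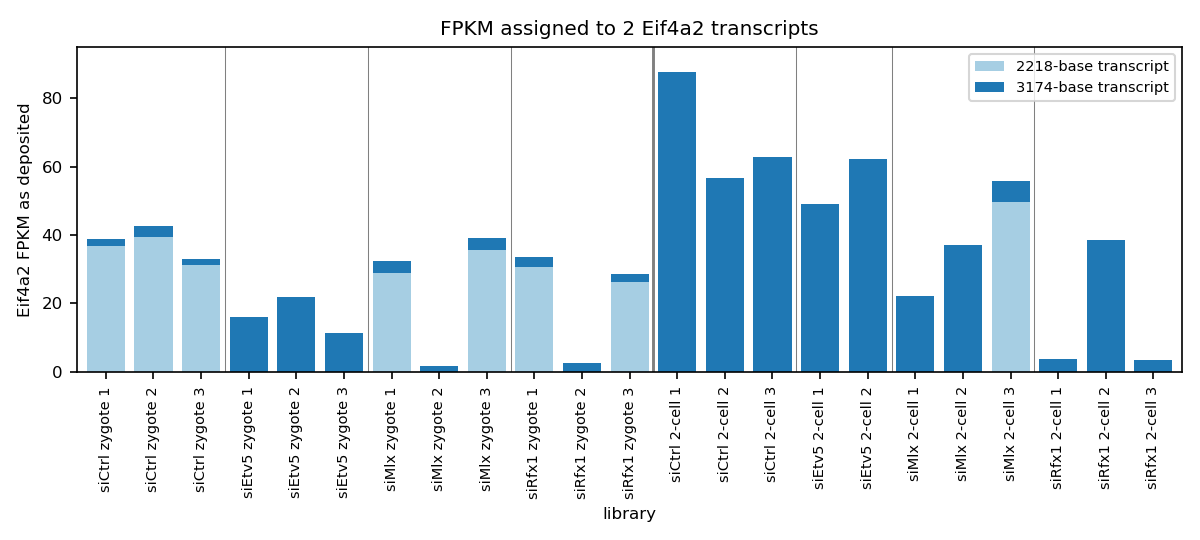
Deposited FPKM assigned to the 2218-base (light) and 3174-base (dark) transcript of Eif4a2 in each library, stacked so that the bar height is the sum of both. The light part fills most of the bar in siCtrl zygotes and is absent in siCtrl 2-cell and in all siEtv5 libraries.

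At the 2-cell stage in siEtv5 0 of 50 genes passed, beside 0.251% of all genes, and 5 had an unadjusted p under 0.05, beside 15.5%. The lowest was Eif4h, at 127, 165 and 133 FPKM in siCtrl and 82.5 and 91.0 in siEtv5 (-0.68 ± 0.18, limma adjusted p = 0.155). In the libraries labelled siMlx 2-cell 0 of 50 genes passed either, beside 0.00945% of all genes (1 of 10584), and 9 had an unadjusted p under 0.05, beside 18.7%. Of the 50 log2 differences 35 were above 0 and 15 below, with a median of 0.33 beside -0.05 over all genes. In 10 genes all siMlx libraries lay above all siCtrl libraries, beside 10.9% of all genes, and in 4 all below, beside 15% of all genes. Without the library labelled siMlx 2-cell 3, 37 differences were above 0 and 13 below, the medians were 0.35 and -0.11, 17 genes had an unadjusted p under 0.05 beside 24.6%, and 16 and 5 did not overlap, beside 19.4% and 23.9%. Eif1b was at 162, 118 and 102 FPKM there and at 58.9, 60.1 and 51.4 in siCtrl (1.38 ± 0.36, limma adjusted p = 0.136). Eif5b was at 163, 145 and 102 FPKM and at 60.5, 61.2 and 66.9 in siCtrl (1.34 ± 0.35, limma adjusted p = 0.136). In both genes the library labelled siMlx 2-cell 3, with Mlx in the siCtrl range, had the lowest of the 3 values and still lay above siCtrl. Without it these 2 genes passed, Eif1b with a limma adjusted p of 0.0477 and Eif5b of 0.0405. The share of all 10574 genes that passed in that fit is not given, so the 2 calls are not set against it. Eif4e1b went the other way, at 6.59, 8.43 and 9.65 FPKM against 16.5 to 24.7 in siCtrl (-0.996 ± 0.30, limma adjusted p = 0.159, and 0.127 without that library).

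The lowest p in the siMlx 2-cell libraries was that of the Y-linked Eif2s3y, listed at 0 in all 3 (limma adjusted p = 0.0977, and 0.0714 without siMlx 2-cell 3). Eif2s3y reached the filter through siCtrl 2-cell alone. Other Y-linked genes moved with it. The sum of Ddx3y, Kdm5d, Uty and Zfy1, a list chosen after the values were seen, was 0 in all zygotes, 4.29, 0.942 and 1.59 FPKM in siCtrl 2-cell, 5.84 and 6.89 in siEtv5 2-cell and 0, 0.105 and 0.0869 in siMlx 2-cell. In siRfx1 2-cell it was 4.63, 0 and 51.7 FPKM, and Eif2s3y was at 0, 0 and 10.1. The part of the sex of the embryos in these values was not tested, and the labels do not give it.

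In siRfx1 2-cell 4 of 48 genes passed, 2 higher and 2 lower, beside 3.58% of all genes (2.14% higher and 1.45% lower). Eif5b (chr1:38054855-38112424, plus strand) was at 245, 186 and 239 FPKM in siRfx1 and 60.5, 61.2 and 66.9 in siCtrl, a log2 difference of 2.51 ± 0.27 (limma adjusted p = 0.00912). Eif3a was at 180, 224 and 211 FPKM in siRfx1 and 79.6, 53.4 and 90.2 in siCtrl, a difference of 2.18 ± 0.31 (limma adjusted p = 0.0165). Each of these values was above those of every library of the other 7 groups. Eif3d (chr15:77789428-77801254, minus strand), which can bind caps itself, was listed at 0 in all 3 siRfx1 libraries and at 6.78, 10.4 and 12.8 FPKM in siCtrl (limma adjusted p = 0.0328). Eif3e was listed at 0 in all 3 and at 5.75, 6.89 and 5.82 FPKM in siCtrl (limma adjusted p = 0.0411). At the siCtrl level the aligned bases of these libraries would have held 2273 to 3323 bases of Eif3d and 1128 to 1649 of Eif3e. Such figures do not show that a listed 0 is a loss, since other genes had a 0 in only part of these libraries. Eif3k, for which 4385, 3000 and 3094 bases would be held, was at 0, 30.4 and 0 FPKM in siRfx1 2-cell 1, 2 and 3. Eif4e2, with 5753, 3935 and 4059 bases, was at 0.699, 0 and 15.6 FPKM. Both genes reached the filter through siCtrl alone, being at 0 in all 3 siRfx1 libraries. Eif3g, Eif3m, Eif4ebp3 and Eif2ak2 were at 0 in all 3 as well, all of them at 4.16 FPKM or less in siCtrl 2-cell. All 4 calls were lost when any 1 siCtrl 2-cell library was left out (limma adjusted p 0.0752 to 0.14) and with siEtv5 2-cell as the control (0.0813 to 0.0819).

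Close behind stood Eif6, at 119, 155 and 119 FPKM against 358, 570 and 506 in siCtrl (-1.14 ± 0.26, limma adjusted p = 0.0606), and Eif1, at 285, 359 and 330 against 936, 1063 and 751 (-0.78 ± 0.20, limma adjusted p = 0.0795). These log2 differences were taken after the siRfx1 2-cell values had been scaled up relative to siCtrl by 0.71 on the log2 scale, and the median over all genes was still -0.25. On the deposited FPKM the median over all genes was -0.85 and that of the initiation genes -0.92, and 2 rose and 8 fell, beside 1.42% and 11.4% of all genes.

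The differences in siRfx1 2-cell moved with transcript length. Across the 48 genes Spearman's rho between length and log2 difference was 0.60, and across all 10302 genes tested 0.33. This is a correlation across genes of the same libraries, which are not independent. The 9 initiation genes of up to 1500 bases had a median of -0.78 and the 22 longer than 2500 bases one of 0.29, beside -0.83 and 0.06 in the other genes. Eif5b and Eif3a are among the longest of the 52 and Eif3e, Eif6 and Eif1 among the shorter. In the other 5 KD comparisons rho over the initiation genes was between -0.14 and 0.07. Over all genes tested it was -0.27 in siMlx zygotes, -0.26 in siRfx1 zygotes and -0.14 in siEtv5 zygotes. At the 2-cell stage it was 0.09 in siEtv5 and -0.03 in siMlx. A trend over length in all genes was thus not particular to siRfx1 2-cell. With the trend over length removed, Eif5b and Eif3a still passed and Eif3d (limma adjusted p = 0.0558) and Eif3e (0.118) did not.

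**Figure D5:**
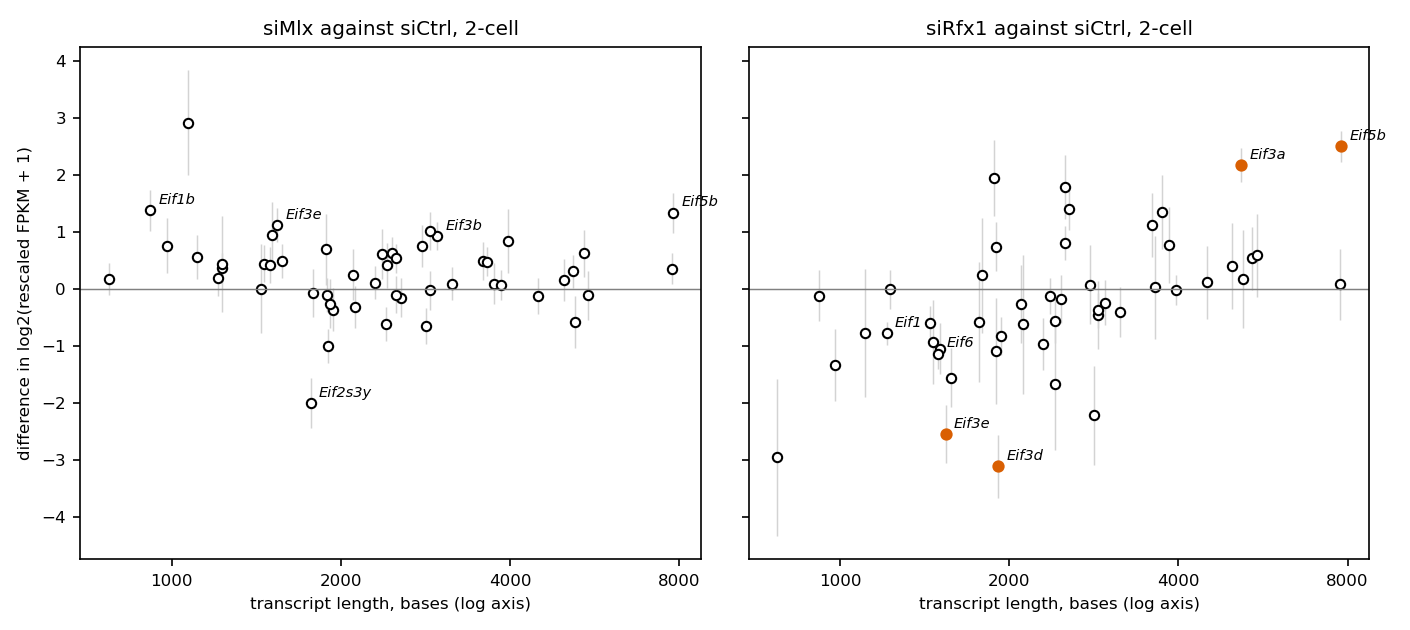
Log2 difference from siCtrl at the 2-cell stage of each gene tested, with SE bars, against transcript length (log axis), in siMlx (left) and siRfx1 (right). Length is the mean over the transcripts of a gene, weighted by their FPKM. Filled points had an adjusted p under 0.05, and gene names mark those described in the text. In siRfx1 the points climb from the short to the long transcripts, with Eif5b and Eif3a at the upper right, and in siMlx they do not.

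Whether the stage difference itself differed between a KD group and siCtrl was tested as an interaction. In siEtv5 0 of 50 genes passed, beside 0.316% of all genes, and in siMlx 0 of 49, beside 1.16%. In siRfx1 7 of 48 passed, beside 10% of all genes: Eif3a and Eif5b had a larger stage difference than in siCtrl (3.04% of all genes) and Eif1, Eif3d, Eif3e, Eif3f and Eif6 a smaller or opposite one (6.96%). For Eif1 the stage difference was 0.47 in siCtrl, where the call was lost under most alternatives, and -1.03 in siRfx1, and with the libraries of both rescaled together they differed by -1.23 ± 0.24 (limma adjusted p = 0.0119).

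By the motif of the KD target, the median log2 difference in siMlx zygotes was 0.36 over 9 genes with an E-box and 0.18 over 28 without, and in siMlx 2-cell 0.24 over 10 and 0.25 over 31 (0.35 and 0.34 without siMlx 2-cell 3). In siEtv5 zygotes it was 0.22 over 12 genes with the ETS motif and 0.09 over 25 without, and in 2-cell -0.03 over 15 and 0.04 over 26. In siRfx1 zygotes it was 0.11 over 6 genes with the X-box core and 0.08 over 31 without, and in 2-cell -0.49 over 8 and -0.18 over 31.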

How the data were processed

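The data were 23 RNA-seq libraries of siRNA-injected mouse embryos, in 8 groups given by the sample titles. Blastomeres were lysed, RNA was reverse transcribed from oligo-dT primers and the cDNA was amplified, sonicated and made into unstranded libraries. Per the submitters' processing notes the authors used STAR 2.5.2b, mm9 and StringTie 1.3.4, which the file headers give as 1.3.3b with a RefSeq annotation. The deposited tables list FPKM and coverage for 29306 transcripts per library, of which 976 have no gene name and stayed out of the tests. The tables hold no read counts, so counting error is unknown and depth is given as aligned bases, which were derived from the ratio of coverage to FPKM.

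FPKM was summed per gene. Each comparison set its libraries to a common scale with the median ratio of the genes that reached 1 FPKM in every one of its libraries. Genes whose mean then reached 1 entered limma 3.58.1 (R 4.3.3) as log2(FPKM + 1) (variance trend, two-sided, Benjamini-Hochberg over all genes tested), so fold changes of low genes are understated. The authors' own test used counts that were not used here. FPKM values are as deposited where given per library, and rescaled where a mean ± SD stands with a log2 difference. Ratios of related genes were tested with an exact permutation test (scipy 1.17.1). Copies elsewhere in mm9 were found with blastn 2.17.0. The script was tested on simulated data. No 2 of the 253 library pairs held identical values.

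The members, roles and lists were chosen with earlier results of these data known. Genes were described by name where they had the largest stage differences in siCtrl that passed (up to 6 each way, mean at least 5 FPKM), where they passed or had the lowest p in a KD comparison, and for a fixed set of well-known factors. Other genes were named to account for every role, after their values were seen. Alternatives tried were another pseudocount (0.1), dropping the filter or raising it to 5 FPKM, unscaled FPKM, all libraries in a single fit, a replicate block, limma's voom on estimated fragments, removal of a trend over transcript length (span 0.3), a fold above 2, siEtv5 as the control and leaving out each library. Replicate numbers are shared by the titles of all groups. The correlation of deviations between same-numbered libraries was -0.19 to 0.36 and did not exceed 0.1 for every pair of any comparison, so the numbers were not taken as pairs.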

Additional observations from a re-analysis of the deposited data

Results flagged for a closer look

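The difference between 2-cell and zygote was itself different in siRfx1 and siCtrl for 7 of the 48 genes tested (limma, interaction of siRNA and stage, adjusted over all genes), beside 10% of all genes. The values are the log2 stage difference in siRfx1 minus that in siCtrl, with their SE. It was -4.34 ± 0.44 for Eif3e (limma adjusted p = 0.00054), -2.11 ± 0.52 for Eif3d (0.0279) and -1.97 ± 0.53 for Eif3f (0.0379), all subunits of eIF3. For a further eIF3 subunit, Eif3a, it was 2.11 ± 0.41 (limma adjusted p = 0.0114). For the subunit-joining factor Eif5b it was 1.93 ± 0.33 (0.00604), for Eif6 -1.70 ± 0.31 (0.00742) and for Eif1 -1.23 ± 0.24 (0.0119). The siRfx1 2-cell libraries had the fewest aligned bases and the fewest genes at 1 FPKM or more, their values moved with transcript length (Spearman's rho 0.56 over the 48 genes in this comparison), and Eif3d and Eif3e were listed at 0 in all 3. The part of these in the 7 differences was not tested beyond the removal of the length trend, after which Eif3a, Eif3e and Eif5b still passed and the other 4 did not.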

How the results depend on the processing

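The counts of genes that passed depended on the setting mostly in the small KD results. Beside the count in siRfx1 2-cell on FPKM as deposited, 1.42% of all genes rose and 11.4% fell. For the other settings the share of all genes is not given, so the counts are not results about the initiation genes alone. In siMlx zygotes the count of 1 became 3 with a filter at 5 FPKM, 4 on FPKM as deposited, 3 with voom and 0 with siEtv5 as the control, and 0 to 4 when a library was left out, with 0 without siCtrl zygote 3 or siMlx zygote 1 and 4 without siMlx zygote 2. In siMlx 2-cell the count of 0 became 4 with all 23 libraries in a single fit and 0 to 2 when a library was left out, with 1 without the library labelled siMlx 2-cell 1 (Eif3g) and 2 without that labelled siMlx 2-cell 3. In siRfx1 2-cell the count of 4 became 2 without a filter, 2 with a filter at 5 FPKM, 10 on FPKM as deposited, 16 in a single fit, 0 with siEtv5 as the control and 0 to 7 when a library was left out, with 0 without any siCtrl library and 7 without siRfx1 2-cell 2. For the siRfx1 interaction the count of 7 became 12 on FPKM as deposited and 5 to 18 when a library was left out, with 14 without siRfx1 2-cell 1 or 2 and 18 without siRfx1 2-cell 3. For the siMlx interaction the count of 0 became 1 with a pseudocount of 0.1, without a filter and with voom, and 0 to 1 when a library was left out (1 without siCtrl zygote 1, siMlx 2-cell 1 or siMlx 2-cell 3), and for siEtv5 0 to 3 (3 without siEtv5 zygote 2). The stage count in siCtrl was 42 and stayed within 37 to 43 when a library was left out and 32 to 42 otherwise, that in siMlx was 36 and within 32 to 37 and 31 to 35, that in siEtv5 was 35, within 21 to 35 when a library was left out, and that in siRfx1 was 20, within 11 to 27. The causes of these moves were not tested.

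With the replicate number as a block, 2 genes passed in siRfx1 2-cell, Eif3a and Eif5b, in place of 4. The numbers do not pair the libraries, and no other count moved by over 1.5 times under the block. Of the named genes, the siCtrl stage difference of Eif1 turned from 0.47 to -0.15 when the length trend was removed (limma adjusted p = 0.426), which was the 1 reversal among the values of named genes, while 474 kept direction and call, 52 lost the call and 4 gained it. No read counts were used, so the depth below which a listed 0 can be told from a low level is unknown.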

Other observations

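Other genes of translation, from lists chosen with earlier results of these data known, also changed between the stages in siCtrl. Of 8 poly(A)-binding proteins and partners tested 3 rose, 3 fell and 2 did not pass. Pabpc1, the general cytoplasmic poly(A)-binding protein, had a rescaled level of 1.28 ± 0.564 FPKM in zygotes and 56.6 ± 1.02 in 2-cell (SD, n = 3; limma adjusted p = 4.54e-06). Pabpc1l, its egg form, went from 45.7 ± 5.02 to 1.04 ± 0.626, and Pabpn1l, a further egg form, from 133 ± 14.2 to 1.31 ± 0.701. Levels of the general and the egg form thus crossed, as did those of Eif4e and Eif4e1b. Of 7 elongation factors tested 5 rose and 2 fell, and Eef2, which moves the ribosome along, rose by 2.70 on the log2 scale. Eef2k, which switches eEF2 off by phosphorylation, fell by 3.37. Of 16 kinases and phosphatases acting on initiation 10 rose, 3 fell and 3 did not pass, and the kinase gene Mknk2 rose by 3.57. Of 10 other helpers of initiation tested 6 rose, 3 fell and 1 did not pass, and of 6 termination and recycling factors 2 rose, 2 fell and 2 did not pass. These counts stand beside 40.6% of all genes higher and 31.2% lower.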
